A study of Mus musculus with 3 samples.

Results

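Blood CD8 T cells that held Gzmk and high S100a4 transcripts, without a transcript of Zeb2 or S1pr5, were described against all other cells of the same blood library. Gzmk encodes granzyme K, a serine protease stored in cytotoxic granules, and S100a4 encodes a small calcium-binding protein found in effector and memory T cells. Zeb2, a transcriptional repressor, and S1pr5, a receptor for sphingosine 1-phosphate, mark terminally differentiated effector cells. The members were chosen by measured transcripts: a member was a cell with at least 500 genes, at most 10% mitochondrial counts, at least 1 UMI (unique molecular identifier, 1 captured transcript) of Gzmk, at least 2 UMIs of S100a4 and 0 UMIs of Zeb2 and S1pr5. The rule gave 472 members of 5652 filtered blood cells, or 8.35% (95% interval 7.64–9.10), among 18920 filtered cells in the series. The T cell markers Cd3e, Cd3d, Cd3g, Cd8a, Cd8b1 and Trac were all seen, and 472 of 472 members had at least 3 UMIs of these 6 genes. So had 5169 of 5180 other blood cells (99.8%). The library came from sorted CD8 T cells, so these markers do not set the members apart. The marker genes Lgals3, Ccr2 and Serpina3g were at 303, 154 and 92.0 CPM (UMIs of the gene per 1e+06 UMIs) in the members.

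The blood library (PBMC) and a library from the tumour-draining lymph node (TdLN) held P14 cells, CD8 T cells whose transgenic receptor sees an epitope of the lymphocytic choriomeningitis virus (LCMV) glycoprotein. C57BL/6 mice bore B16.Gp, a B16.F10 melanoma line that expresses that glycoprotein, and received naive (CD44- GFP+) P14 cells from TCF-1-GFP reporter mice 8 days after the tumour. Both libraries came from day 16 after that transfer, from CD8 T cells gated on CD45.1 and CD44. The other library held P14 memory cells, taken on day 200 after an acute infection with LCMV and sorted for CD8, CD45.1, CD44 and CD127, against KLRG1, and on 1 further marker. That sort acts directly on the genes Il7r and Klrg1. The labels give strain C57BL/6 and genotype WT for all 3. By their labels all groups share transferred receptor-transgenic cells, the tumour groups rest on 1 transplanted line with a viral antigen, and neither the number, sex and age of the mice nor the tissue of the memory cells is given in the labels. Each group had 1 library, so tissue, day, infection and sort cannot be told apart between libraries, and no difference between groups was tested.

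CD8 T cells that meet antigen divide and give rise to short-lived effector cells, which carry granzymes, killer-cell lectin receptors and the fractalkine receptor CX3CR1, and to memory precursors, which keep the interleukin 7 receptor and the transcription factor TCF-1. Naive and central memory cells use CCR7 to enter lymph nodes, whereas effector cells use inflammatory chemokine receptors such as CXCR3, CCR2 and CXCR6 to enter tissues. Granzyme K is typical of a memory-like effector state in many tissues, and granzyme A and B of killer cells.

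The members held 3467922 UMIs in all, with a median of 6529 per cell (quartiles 5262 and 8246). The other 5180 cells held 45519338, with a median of 7332. Members had a median of 1862.5 genes and 4.01% mitochondrial counts, against 1964.5 genes and 4.41% in the other cells. Of the barcodes kept, 10 were shared by the blood and memory libraries, 1 of them a member, and 15 by the blood and lymph node libraries, none of them a member. Values below are UMIs summed over a class of cells, as CPM of that class, and 95% intervals in parentheses cover counting error only, not variation between mice. CPM is a level per transcript, and 3' counting needs no division by gene length.

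One readout outside the rule went against the library's label. The P14 receptor uses the beta chain segment Trbv13-3 (Vβ8.1) and alpha segments of the Trav14 family (Vα2). Of 131 beta V segment UMIs in the members, 62.6% (53.7–70.9) came from segments other than Trbv13-3. Trbv19 gave 16.0%, Trbv12-2 gave 14.5% and Trbv15 gave 13.7%. The share was 29.2% (27.2–31.3) of 1983 UMIs in the other blood cells and 4.04% (2.52–6.11) of 520 UMIs in memory cells of the same gate. Trav14 segments made up 27.6% (22.1–33.7) of 246 alpha V segment UMIs in the members and 87.4% (84.5–89.9) of 619 in the memory cells. By cell, 32 members had Trbv13-3 only, 66 had other beta segments only, 7 had both and 367 had none, since 3' reads seldom reach the V segment. Members without a Trbv13-3 UMI cannot be taken as P14 cells, and leading results are given below also within cells of each kind of segment.

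**Figure D1:**
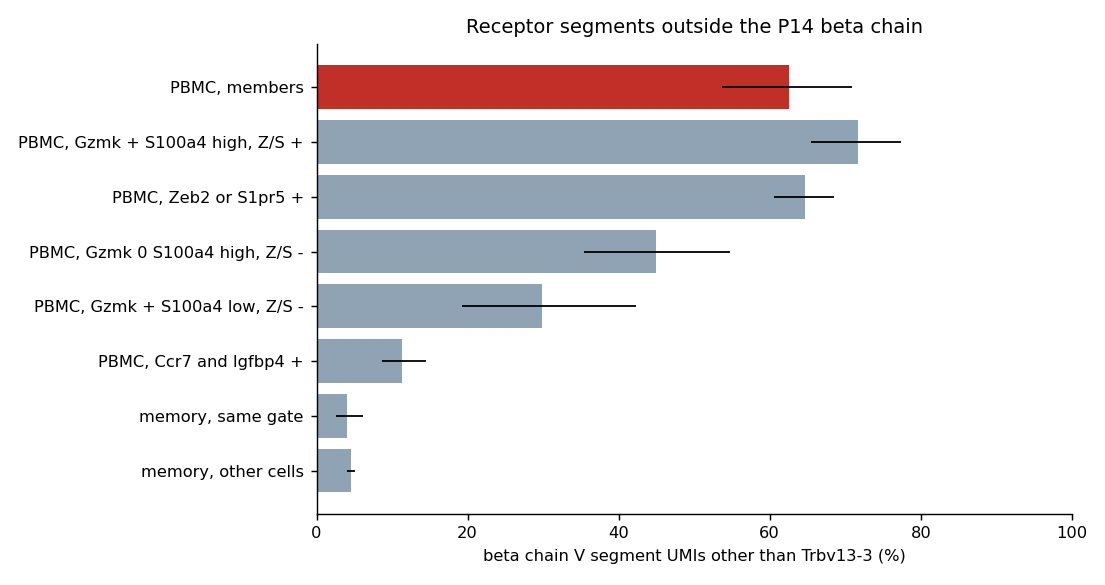
Share of beta chain V segment UMIs that came from segments other than Trbv13-3 (x axis, percent), by class of cells (y axis; Z/S, Zeb2 or S1pr5), with exact binomial 95% intervals for counting error. The members lie at 62.6%, close to the Zeb2 or S1pr5 positive cells at 64.6% and far from both memory classes, at 4.04% and 4.54%.

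The share of other segments was not even across blood. It was 64.6% (60.5–68.5) of 571 UMIs in the 2385 cells with Zeb2 or S1pr5, and 11.3% (8.64–14.5) of 476 UMIs in the 946 cells with both Ccr7 and Igfbp4, naive-type genes. Among cells without Zeb2 and S1pr5, it was 45.0% (35.4–54.8) with high S100a4 and no Gzmk, and 29.9% (19.3–42.3) with Gzmk and low S100a4. It was 71.7% (65.4–77.4) in cells that differed from the members only by holding Zeb2 or S1pr5. Its part in the gene differences was not tested beyond the split by segment.

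The gate chose the members by 4 genes, and these are described, not tested. Gzmk was seen in 1948 blood cells (34.5%) and S100a4 at 2 or more UMIs in 2531 (44.8%). Both held in 1415, and 943 of these had Zeb2 or S1pr5, which left the 472. Members had a median of 2 UMIs of Gzmk (range 1 to 14) and 10 of S100a4 (range 2 to 103). Many members lay close to the thresholds: 193 members had a single Gzmk UMI and 41 had exactly 2 of S100a4. S100a6 was at 2297 CPM and Lgals3 at 159 in those 41 cells, and at 2030 and 151 in the 52 cells just outside with 1 UMI of S100a4. Ier3 was at 69.7 CPM (43.1–107) just inside and 21.9 (9.46–43.2) just outside. Tox went the other way, at 13.3 (3.62–34.0) just inside and 32.9 (17–57.4) just outside, as did Ccr2, at 116 and 142, each with overlapping intervals.

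Promoters of 4 genes are shown: those of the gate genes Gzmk and S100a4, whose levels the rule fixed, and of a neighbour of each, Gzma, which was lower in the members than in the other blood cells, and S100a6, which was higher. Gzmk lies at chr13:113171608-113225908 and Gzma at chr13:113093825-113100981, both on the minus strand, and S100a4 at chr3:90603771-90606045 and S100a6 at chr3:90612882-90624181 on the plus strand (GRCm38, GENCODE M21). Each sequence is the 250 bases before the RefSeq start (GRCm38.p6), 5′ to 3′ on the gene's strand. For Gzmk that start lies 44943 bases inside the GENCODE gene. Capitals mark matches on either strand to 3 motifs of factor families active in CD8 T cells: TGTGGT (RUNX), found in 14% of 32851 windows of the same length, CAGGTG (E-box, bound by ZEB proteins among others), in 17.2%, and GGTGTGA (T-box), in 3.33%.
Gzmk, chr13:113180966-113181215, minus strand: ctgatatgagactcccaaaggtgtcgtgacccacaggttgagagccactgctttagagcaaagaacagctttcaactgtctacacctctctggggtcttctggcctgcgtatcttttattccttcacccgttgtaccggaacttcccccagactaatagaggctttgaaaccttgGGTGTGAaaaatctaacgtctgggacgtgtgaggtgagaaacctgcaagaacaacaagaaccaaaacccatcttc
Gzma, chr13:113100982-113101231, minus strand: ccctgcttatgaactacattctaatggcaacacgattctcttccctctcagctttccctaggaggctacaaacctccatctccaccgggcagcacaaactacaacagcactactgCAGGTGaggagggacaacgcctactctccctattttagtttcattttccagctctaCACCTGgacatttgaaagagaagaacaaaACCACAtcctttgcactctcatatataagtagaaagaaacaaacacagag
S100a4, chr3:90603520-90603769, plus strand: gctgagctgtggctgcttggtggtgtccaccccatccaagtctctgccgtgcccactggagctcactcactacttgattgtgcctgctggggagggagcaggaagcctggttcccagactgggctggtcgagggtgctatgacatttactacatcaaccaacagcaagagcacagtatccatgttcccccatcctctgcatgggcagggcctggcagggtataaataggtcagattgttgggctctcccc
S100a6, chr3:90612644-90612893, plus strand: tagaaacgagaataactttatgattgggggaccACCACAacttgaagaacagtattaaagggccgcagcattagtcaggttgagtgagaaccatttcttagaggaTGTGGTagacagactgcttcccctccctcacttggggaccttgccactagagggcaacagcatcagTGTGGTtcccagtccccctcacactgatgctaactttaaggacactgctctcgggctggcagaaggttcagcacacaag
The Gzmk window held 1 T-box match, the Gzma window 1 RUNX and 2 E-box matches, the S100a6 window 3 RUNX matches and the S100a4 window none. These matches describe letters in the windows and nothing about binding.

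Against the other blood cells, the members were richer in transcripts of inflammatory chemokine receptors, S100 proteins, serpins, the inhibitory receptor Lag3 and granzyme B. They were poorer in lymph node homing and naive T cell transcripts. Comparing the 4517 genes that reached 20 CPM in either class, 281 (6.22%) were higher in the members by 1.5-fold or more and 87 (1.93%) were lower. At 2-fold, 61 (1.35%) were higher and 35 (0.775%) lower. The median gene was 0.18 higher on the log2 scale. Ribosomal protein genes took 33.5% of the members' UMIs and 42.2% of the other cells', and this moves the zero point. With TMM scaling, which sets the median gene to 0.01, 143 genes were higher and 168 lower. With ribosomal and mitochondrial genes left out of the totals, 179 were higher and 332 lower. Among cells of 4000 to 12000 UMIs 128 were higher and 82 lower, and with equal weight per cell 143 and 72. Ratios are thus best read against 0.18, and so are the list medians below. Since the rule used transcripts of these same cells, the ratios describe the class and test nothing.

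Among genes with at least 50 CPM, the largest ratio was that of Ier3, an immediate early gene that acts on apoptosis and NF-κB signalling. It was at 99.2 CPM (89.0–110) in the members and 14.3 (13.3–15.5) in the other cells, 6.91-fold (6.05–7.89) higher. S100a6, a calcium-binding neighbour of S100a4, was at 3603 against 831 CPM, 4.33-fold (4.25–4.42). Serpina3g, an intracellular inhibitor of proteases including cathepsins, was at 92.0 against 23.5 CPM, 3.92-fold (3.45–4.45). All 3 intervals lie far above the 0.18 of the median gene on the log2 scale. Serp2, a stress-associated protein of the endoplasmic reticulum, was 3.82-fold (3.34–4.35) higher. Tox, a DNA-binding protein of chronically stimulated T cells, was at 59.1 against 16.8 CPM, 3.53-fold (3.01–4.12). Lgals3, which encodes galectin 3, was at 303 against 101 CPM, 3.0-fold (2.80–3.21). The next ratios were those of the receptor Cxcr3 at 2.96-fold, the receptor Cxcr6 at 2.66, the cell cycle kinase Cdk6 at 2.54, the inflammatory caspase Casp1 at 2.50, the thioesterase Acot7 at 2.47 and S100a11 at 2.46.

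At the same minimum, genes of resting cells had the lowest ratios. Igfbp4, a binding protein for insulin-like growth factors, was at 6.92 CPM (4.43–10.3) in the members and 59.8 in the other cells, 8.64-fold (5.79–13.5) lower. Ccr7, the lymph node homing receptor, was at 27.4 against 212 CPM, 7.75-fold (6.33–9.59) lower. Dapl1 was at 46.4 against 355 CPM, 7.64-fold lower. Satb1, a chromatin organiser, and Actn1, a cytoskeletal crosslinker, were 2.58-fold and 3.01-fold lower.

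Receptors for inflammatory chemokines stood out as a list: 4 of 5 measured genes were at least 1.5-fold higher and 0 lower, with a median log2 ratio of 1.19 against 0.18 for all genes. Cxcr3, the receptor for interferon-induced chemokines, was at 229.8 CPM (214–246) against 77.7, and Cxcr6, the receptor for CXCL16, at 237 (221–254) against 88.9. Ccr2 was at 154 (141–167) against 67.5 CPM. Cx3cr1 was the exception, with 107 against 119 CPM. After each cell had been thinned to 3000 UMIs, Cxcr3 was seen in 49.4% (44.7–54.0) of 468 members, 18.5% of 5039 other cells and 15% of 944 Ccr7 and Igfbp4 positive cells; the unthinned shares were 72.7%, 39.4% and 47.8%. For Cxcr6 the thinned shares were 46.6%, 25.4% and 3.50%, for Ccr2 33.8%, 20.6% and 0.953%, and for Lgals3 48.9%, 26.6% and 0.742%. The class with Ccr7 and Igfbp4 had a median of 12971 UMIs before thinning, against 6529 in members, and its shares are given for comparison, since free RNA was not measured.

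Among adhesion genes 4 of 11 were higher and 0 lower, with a median of 0.39. Itga4, the integrin chain of VLA-4, was at 339.7 CPM (321–359.6) against 177, but at a log2 ratio of 0.45 among cells of 4000 to 12000 UMIs, and Itgax was at 38.4 against 13.7. In the S100, annexin and galectin list 10 of 14 were higher and 0 lower, with a median of 0.70. Besides S100a6, S100a11 and Lgals3, Anxa2 (annexin A2) was at 137 against 61.4 CPM, 2.23-fold (2.02–2.46), and Lgals1 (galectin 1) at 1584 against 965, 1.64-fold, but at a log2 ratio of 0.15 among cells of 4000 to 12000 UMIs and 0.54 with TMM scaling. The serpin list had 3 of 4 higher, among them Serpinb9, the inhibitor of granzyme B, at 37.5 against 21.9 CPM, which did not pass among cells of 4000 to 12000 UMIs.

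Granule genes were uneven. Of 15 measured, 6 were higher and 1 lower, with a median of 0.49. Gzmb, granzyme B, was at 337 CPM (318–357) against 154, 2.18-fold (2.05–2.32). Nkg7, a granule membrane protein, was at 2619 against 1508, 1.74-fold, and Prf1, perforin, at 139.8 against 103, 1.36-fold. Gzma, granzyme A, was the 1 lower gene, at 644 (618–671) against 1343 CPM, 2.09-fold (2.0–2.18) lower. Ccl5, a chemokine stored in granules, was the most abundant of these, at 31622 against 14288 CPM, 2.21-fold higher, and Ifng, interferon gamma, was at 58.2 against 27.6, 2.11-fold. Among cells of 4000 to 12000 UMIs only, the log2 ratios of Gzmb (0.43), Nkg7 (0.49) and Ifng (0.52) no longer passed 1.5-fold, and Gzma turned to 0.10 where cells were thinned to 3000 UMIs before the gate.

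Genes of the inhibitory receptor and exhaustion list were few but high in ratio. Of 17 genes on the list 5 reached 20 CPM, 4 of them higher and 0 lower, with a median of 1.39. Lag3, an inhibitory receptor for MHC class II, was at 29.7 CPM (24.2–36.0) against 6.94, 4.28-fold (3.39–5.36), and Entpd1 (CD39) at 23.6 against 10.7. Both reached 20 CPM in the members only and could thus only be higher. The list's count and median follow in part from that minimum. Pdcd1, which encodes PD-1, did not reach the minimum, at 16.7 CPM (12.7–21.6) against 1.96. Havcr2, which encodes TIM-3, was at 2.02 CPM (0.812–4.16) against 1.47, too few counts to tell the classes apart. Thinned shares of cells with a UMI were 8.97% for Lag3 and 4.49% for Pdcd1 in the members, and 0% of 944 (up to 0.390%) and 0.106% in the Ccr7 and Igfbp4 positive cells. For Tox that class gave 5.30% (3.96–6.92) against 13.9% (10.9–17.4) in the members.

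The naive list had 9 of 11 genes lower and 0 higher, with a median of -1.75. The memory and stem list had 6 of 16 lower and 0 higher, with a median of -0.17; Ccr7 is on it too. Tcf7, which encodes TCF-1, was at 120.0 CPM (109–132) against 202, 1.68-fold (1.53–1.86) lower but under 1.5-fold among cells of 4000 to 12000 UMIs, and Lef1 was 2.0-fold lower. Il7r, at 325 against 305 CPM, and Bcl2, at 268 against 287, differed by less than 1.5-fold. The dissociation and AP-1 stress list had 6 of 12 lower, Jun among them at 47.9 against 142 CPM, and 1 higher, which was Ier3.

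Housekeeping lists sat near the median of all genes. Of 23 oxidative phosphorylation genes 0 passed 1.5-fold, with a median of 0.22, and of 12 glycolysis genes 0 passed, with a median of 0.28. For the cell cycle list 2 of 8 were higher. One of them, Ube2c, a ubiquitin-conjugating enzyme of mitosis, was at 26.0 against 4.0 CPM, but 63 of its 90 UMIs in the members lay in a single cell. At least 3 of 6 division genes (Ube2c, Mki67, Top2a, Birc5, Ccnb2, Cdk1) were seen in 3 members, or 0.636% (0.131–1.85), and in 0.579% (0.391–0.826) of the other cells.

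**Figure D2:**
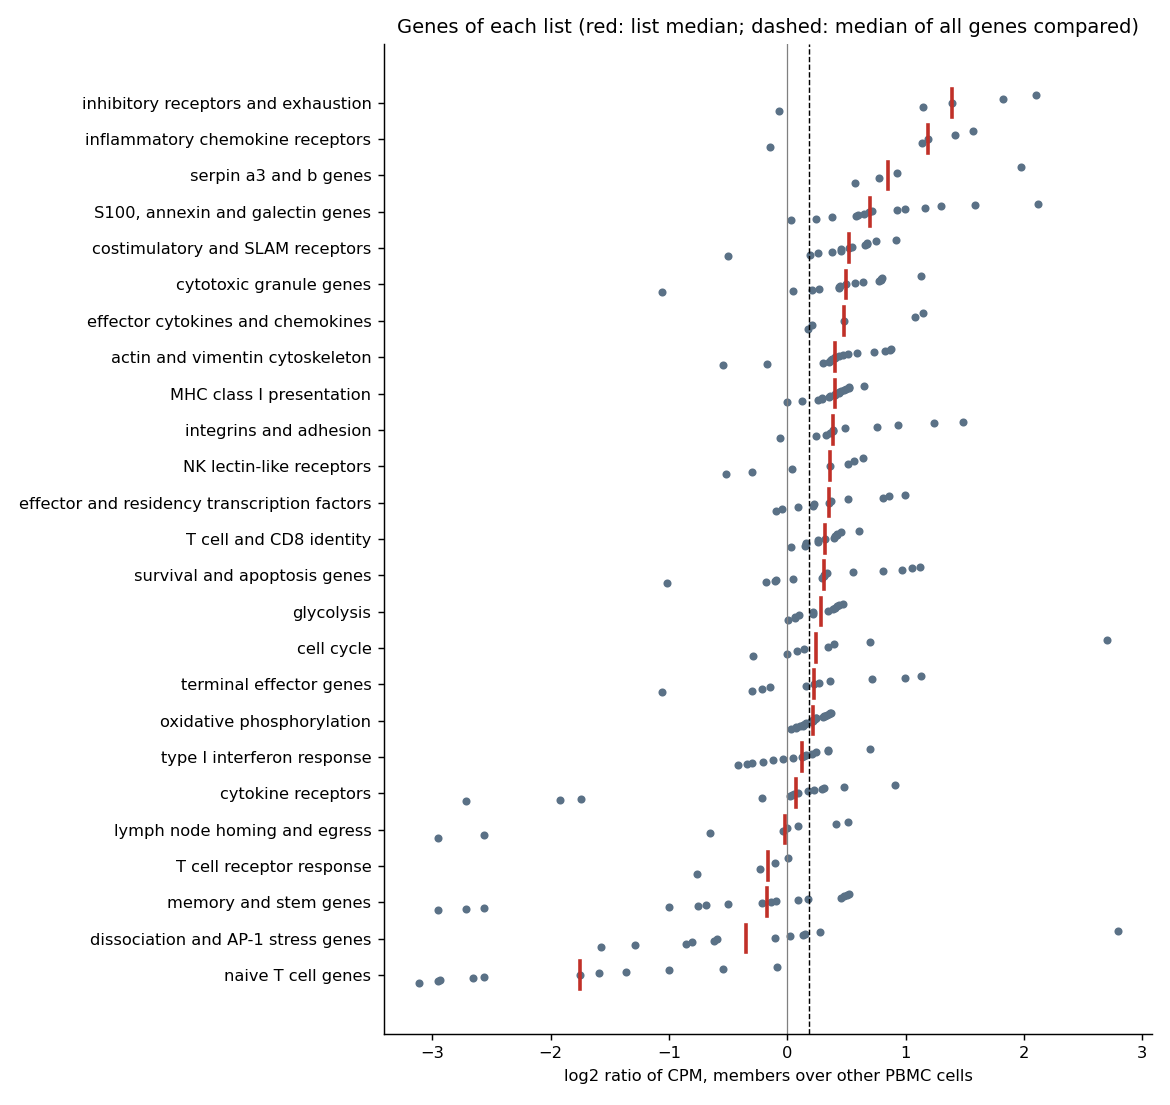
Log2 ratio of CPM in members over other blood cells (x axis) for each measured gene (points) of 25 lists (y axis), with the list median (red) and the median of all 4517 genes, 0.18 (dashed). The inhibitory receptor and exhaustion list (median 1.39) and inflammatory chemokine receptors (1.19) lie highest and naive T cell genes (-1.75) lowest. The first of these medians rests on 5 genes and follows in part from the 20 CPM minimum.

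The other blood cells are themselves mixed, so the members were set beside the 2385 cells with Zeb2 or S1pr5, another class rich in effector transcripts, with a median of 5212 UMIs. Of 4752 genes, 86 (1.81%) passed 1.5-fold as higher in the members and 175 (3.68%) as lower, with a median of -0.10. At 2-fold, 27 (0.568%) were higher and 33 (0.694%) lower. With TMM scaling the counts were 123 and 92, and without ribosomal and mitochondrial genes in the totals 175 and 160. Ccr2, Cxcr6 and Lgals3 differed by less than 1.5-fold: the ratio was 0.93 (0.84–1.02) for Ccr2, 1.13 (1.04–1.22) for Cxcr6 and 1.12 (1.04–1.20) for Lgals3. For these genes the members exceeded the whole of blood but not this class by 1.5-fold. In thinned cells, Gzmb was seen in 45.3% (40.7–49.9) of members and in more of this class, 58.9% (56.8–60.9). Of 15 measured genes in the S100, annexin and galectin list, 3 were higher by 1.5-fold and 2 lower, with a median of 0.02.

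Several effector genes were lower in the members than in that class. Gzma was at 644 against 4119 CPM, 6.39-fold (6.13–6.67) lower. Cx3cr1 was at 107 against 351 CPM, 3.27-fold lower, and Klrg1, an inhibitory lectin receptor of short-lived effector cells, at 55.4 against 203, 3.67-fold lower. Tbx21, the transcription factor T-bet, was at 36.3 against 79.0 CPM, 2.17-fold lower. Of the terminal effector list 9 of 13 were lower and 0 higher (median -0.84), and of the NK lectin receptor list 8 of 9 were lower and 0 higher (median -1.0).

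Memory-associated genes were higher. Il7r was at 325 against 148 CPM, 2.19-fold (2.03–2.35), Tcf7 at 120.0 against 74.0, 1.62-fold, and Bcl2, an inhibitor of apoptosis, at 268 against 162, 1.66-fold. Of the memory and stem list 7 of 14 were higher and 0 lower, with a median of 0.52. Tox was 4.69-fold (3.82–5.76) higher, Ier3 3.92-fold, Cxcr3 3.50-fold (3.18–3.85) and Gpr183, an oxysterol receptor that guides lymphocytes, 3.18-fold (2.72–3.72), at 83.3 against 26.2 CPM. Serpina3g was 2.17-fold and S100a6 1.99-fold higher. Zeb2 and S1pr5 transcripts chose both classes, so these differences describe the split and test nothing.

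**Figure D3:**
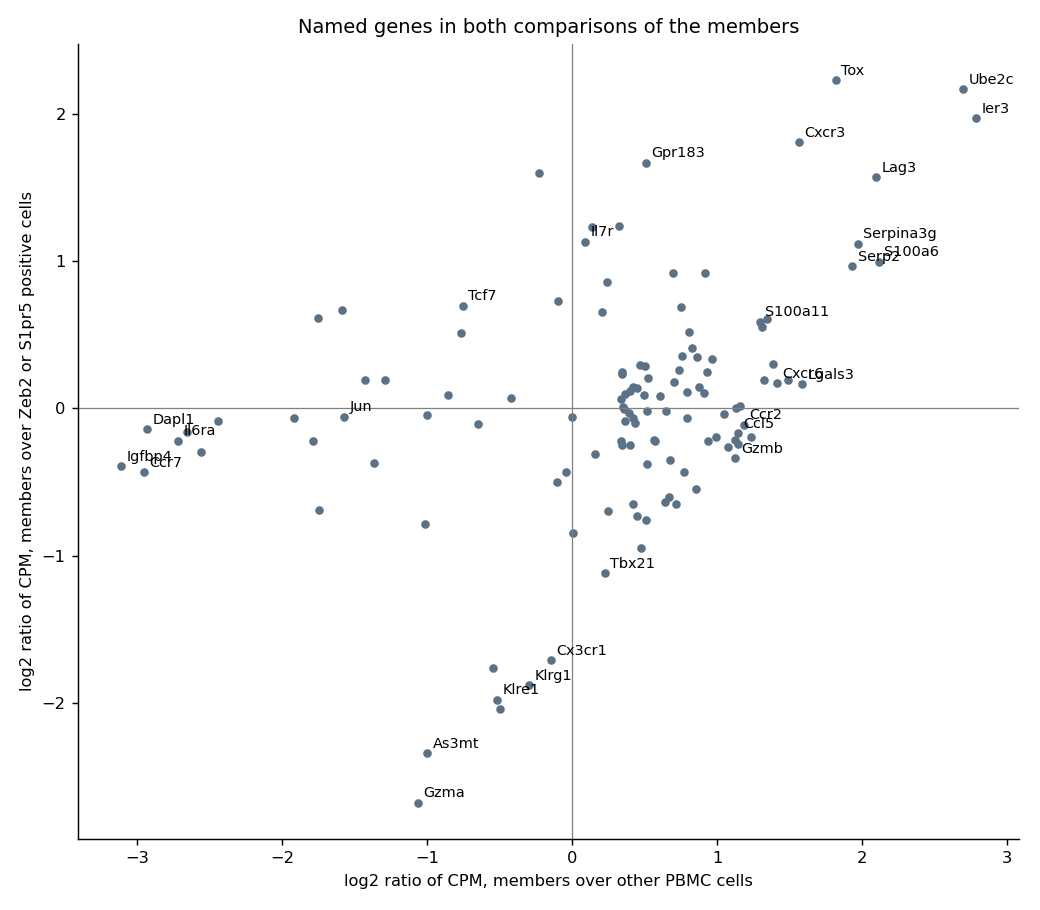
Log2 ratio of CPM in members over other blood cells (x axis) and over Zeb2 or S1pr5 positive cells (y axis) for the measured named genes (points). Tox, Ier3 and Cxcr3 are high on both axes, Ccr7 and Dapl1 are low against other cells only, and Gzma, Cx3cr1 and Klrg1 lie low on the y axis.

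The gate was then taken apart by splitting blood into 8 classes by Gzmk (0 or at least 1 UMI), S100a4 (under 2 or at least 2) and Zeb2 or S1pr5 (none or any). Of the 12 genes with the highest ratios over other cells, 10 were higher in the members than in any of the other 7 classes: Ier3, S100a6, Serpina3g, Serp2, Tox, Cxcr3, Cdk6, Casp1, Acot7 and S100a11. Lgals3 and Cxcr6 were not. Lgals3 was at 315 CPM in the 943 cells that also had Gzmk and high S100a4 but held Zeb2 or S1pr5, against 303 in the members. Cxcr6 was at 247 CPM in cells with high S100a4 and Zeb2 or S1pr5 but no Gzmk, against 237 in the members. The 12 genes had been picked as high in the members over the pool of these same 7 classes. A first rank thus follows in part from the choice and tests nothing. Of the 12 genes with the lowest ratios, 1 was lowest in the members.

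Genes followed the parts of the gate to different degrees. Cxcr3 was between 169 and 229.8 CPM in the 3 classes without Zeb2 and S1pr5 that held Gzmk or high S100a4, and between 57.0 and 79.5 in the 4 classes with them. Cx3cr1 ran the other way, at 71.2 to 107 CPM in those 3 classes and 203 to 375 with Zeb2 or S1pr5, and Gzma likewise, at 401 to 672 against 2615 to 5405. Il7r was at 325 to 405 CPM in the former and 129 to 239 in the latter. Lgals3 rose with each part: it was at 4.06 CPM where none of the 4 genes passed, 83.2 with Gzmk alone and 219.9 with high S100a4 alone. In the classes with Zeb2 or S1pr5 it was at 135 and 201 CPM with low S100a4, and at 296 and 315 with high S100a4. Ier3 was at 23.2 CPM with Gzmk alone, 41.6 with high S100a4 alone and 99.2 with both. Gzmb was at 337 CPM in the members. In the classes with Zeb2 or S1pr5 it was lower, at 269 CPM, only where Gzmk and high S100a4 were both absent. The other classes with Zeb2 or S1pr5 had 418, 442 and 544 CPM.

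**Figure D4:**
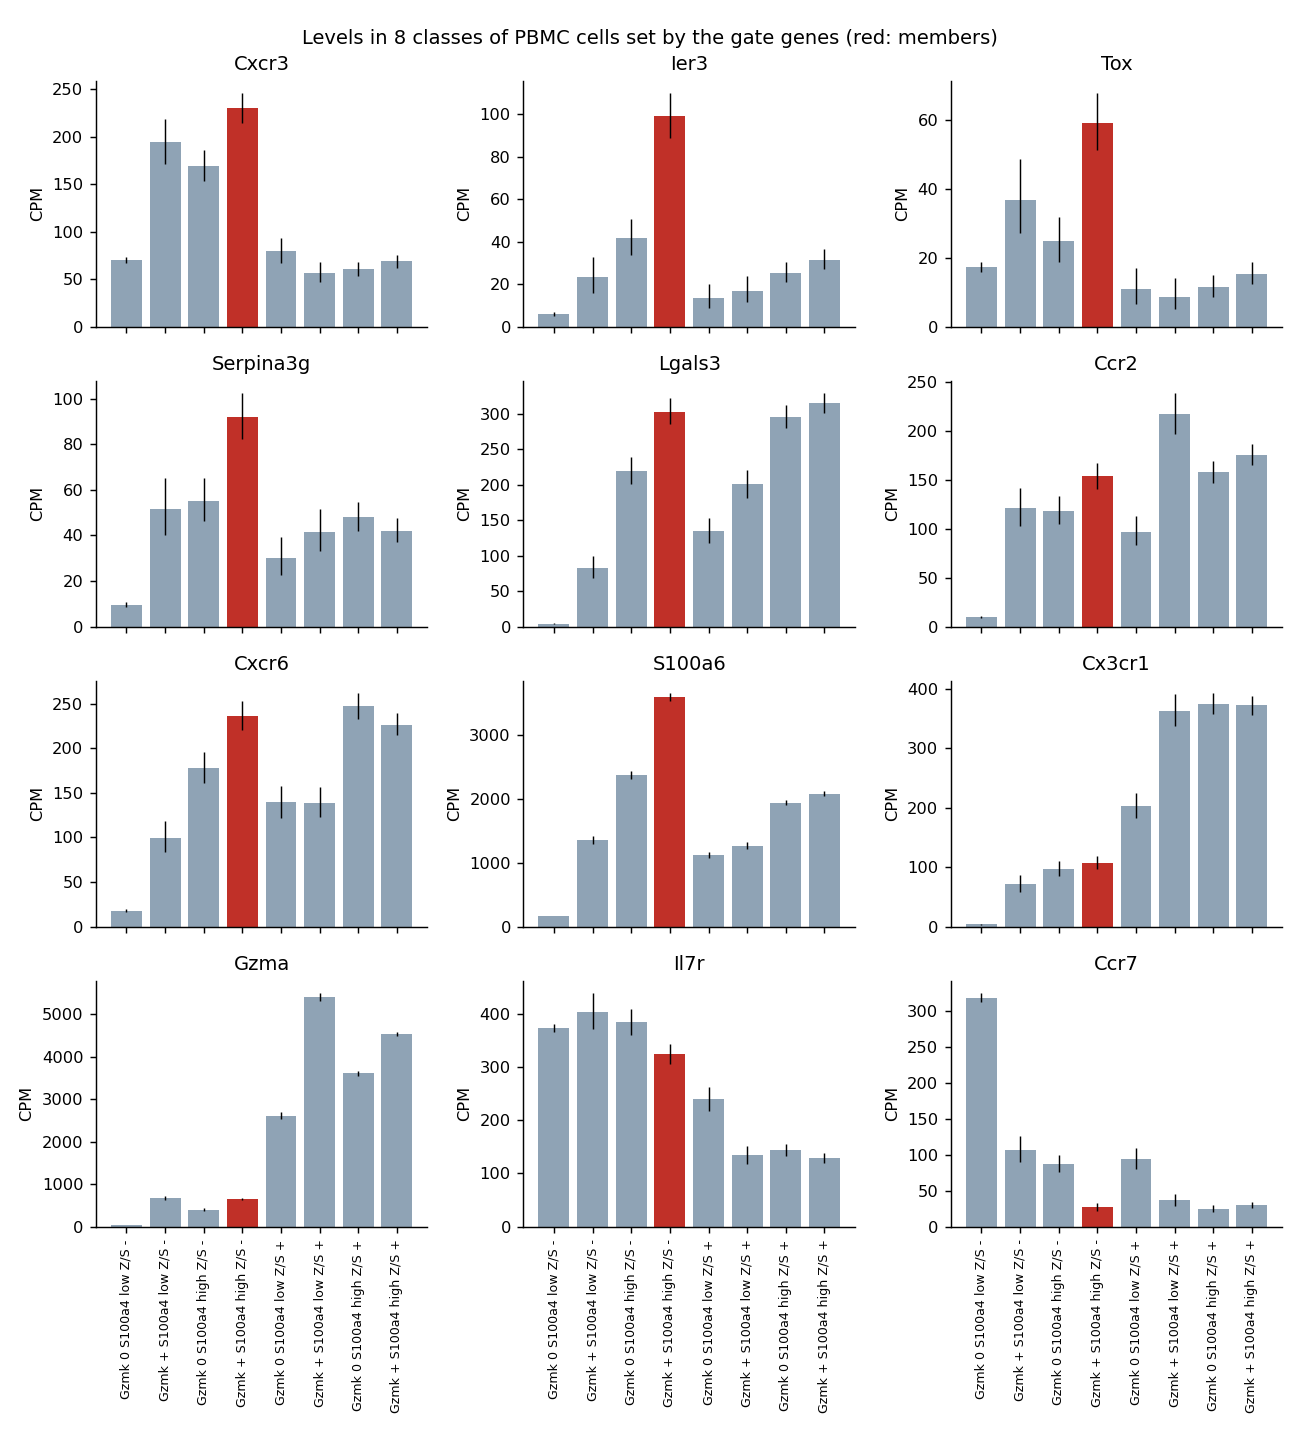
CPM (y axes, from 0) of 12 genes in 8 classes of blood cells set by Gzmk, S100a4 and Zeb2 or S1pr5 (Z/S) transcripts (x axis), with exact Poisson 95% intervals and members in red. Ier3, Tox, Serpina3g and S100a6 peak in the members, Cx3cr1 and Gzma are high with Zeb2 or S1pr5, and Ccr7 is highest, at 319 CPM, where none of the 4 genes passed.

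The closest comparison held Gzmk and S100a4 fixed and changed only Zeb2 or S1pr5. Against those 943 cells, with a median of 5406 UMIs, Tox was 3.85-fold (2.99–4.98) higher in the members, Gpr183 3.38-fold (2.76–4.15), Cxcr3 3.34-fold (2.96–3.78) and Il7r 2.52-fold (2.29–2.76). Gzma was 7.04-fold (6.75–7.36) lower, Klrg1 3.97-fold (3.41–4.65) and Cx3cr1 3.47-fold (3.1–3.88). Against the 326 cells that lacked only Gzmk, Tox was 2.39-fold (1.79–3.25), Ier3 2.38-fold (1.90–3.01) and Gzmb 1.89-fold (1.69–2.12) higher, and Dapl1 4.21-fold lower. Against the 167 cells that lacked only high S100a4, Ier3 was 4.27-fold (2.95–6.39), Lgals3 3.65-fold (3.0–4.48) and Cxcr6 2.38-fold (1.98–2.88) higher, while Cxcr3 was at a ratio of 1.18 (1.03–1.37).

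Within the members, levels moved with the gate genes to different degrees. In the 75 members with 4 or more Gzmk UMIs, Gzma was at 1021 CPM (941–1105), Gzmb at 456 (403–514) and Tox at 93.2 (70.2–121), against 532, 273 and 50.1 in the 193 with 1. Cxcr3 was at 246 and 249 CPM in these classes, within each other's intervals. In the 296 members with 8 or more S100a4 UMIs, Tox was at 71.8 CPM (61.2–83.7) and Lgals3 at 371 (346–397), against 20.2 (10.1–36.2) and 160.1 (128–198) in the 76 with 2 or 3. Gzma ran against S100a4, at 525 CPM (496–556) in the former and 841 (766–922) in the latter. Median depths were 7038 and 6238 UMIs in the Gzmk classes and 6610 and 6595 in the S100a4 classes.

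Gzma was also the gene that varied most from member to member, of 963 with a mean of at least 0.3 UMIs and without the gate genes. At 3000 UMIs per cell its variance was 22 times its mean, against 21.9 in the other cells. Ccl5 followed at 19.5, against 58.2 in the other cells. Those cells pool classes with 2319 to 37872 CPM of this chemokine, so the 2 values do not compare like with like. S100a6 was at 5.17 and Lgals1 at 3.62. The median over the 963 was 1.05, near the value of 1 that counting error alone gives.

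The number of leading genes seen per cell was counted. Of Lgals3, Ccr2, Serpina3g, Cxcr3 and Cxcr6, at least 3 were seen at 3000 UMIs in 32.9% (28.7–37.4) of members, 17.7% (16.2–19.3) of Zeb2 or S1pr5 positive cells, 10.7% (9.84–11.6) of other cells and 0.106% of Ccr7 and Igfbp4 positive cells. At least 2 were seen in 66.2% of members and 28.7% of other cells, and none of the 5 in 8.97% of members. In 116 of 468 members (24.8%) exactly 1 was seen. The 5 genes were markers or leading genes of these same cells, so a larger share than in the other cells follows in part from that choice. Each gene was common in the members by itself, and these shares do not show that they were seen together beyond that.

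The 24 genes with the most extreme ratios, which were chosen on these same cells, were then looked at by receptor segment. Among cells with Trbv13-3 and no other beta segment (32 members, 925 other cells), all 24 had the direction seen over all cells, and 23 passed 1.5-fold. Ier3 was 10.7-fold (6.78–16.5) higher there, S100a6 9.37-fold (8.68–10.1), Tox 3.61-fold (2.06–5.96) and Cxcr3 2.84-fold (2.15–3.69). Among cells with other segments only (66 members, 429 other cells), all 24 again had that direction and 20 passed 1.5-fold. There Tox was 4.06-fold (2.59–6.29) higher, Ier3 3.27-fold (2.16–4.88) and Cxcr3 2.62-fold (2.12–3.22), while Lgals3 was at a ratio of 1.22 (1.0–1.49). Gzma, 1 of the 24, was at a ratio of 0.85 (0.65–1.09) with Trbv13-3 and 8.15-fold (6.94–9.64) lower with other segments. Genes outside the 24 were less even, and the difference between the 2 kinds of cell was not tested. Gzmb was 6.07-fold (4.67–7.80) higher in the Trbv13-3 members but at a ratio of 1.04 (0.88–1.23) with other segments. Cx3cr1 was 2.83-fold (1.77–4.33) higher with Trbv13-3 and 2.80-fold (2.06–3.91) lower with other segments. Gzmb was at 248 CPM in members with Trbv13-3 and 303 in members with other segments, but at 40.8 and 290 in the other cells. For Cx3cr1 these levels were 78.1 and 79.8 CPM in the members and 27.6 and 224 in the other cells. The ratios of both genes thus differed mostly through the other cells. With other segments Tcf7 was at 1.03 (0.79–1.32) and Lgals1 at 0.84 (0.78–0.91), whereas with Trbv13-3 they were 1.72-fold lower and 3.15-fold higher. These splits were chosen after the values had been seen and rest on few cells.

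Members of the 2 kinds were also set side by side. Over all genes, 7.66% had a 95% interval of their ratio that leaves out 1, so single genes from few UMIs describe these cells and no more. Ccr7 was at 95 CPM (63.2–137) in the Trbv13-3 members and 24.1 (12.9–41.3) in those with other segments, from 28 and 13 UMIs. Eomes, a transcription factor of memory cells, was 3.39-fold (1.31–11.2) lower and Ccr2 1.78-fold (1.15–2.82) lower in the Trbv13-3 members. Tox, Cxcr3 and Gzmb gave intervals of the ratio that hold 1. Trav14 made up 44.4% (29.6–60.0) of 45 alpha segment UMIs in the first kind and 32.1% (15.9–52.4) of 28 in the second.

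The same 4-gene gate picked out 539 of 7003 memory cells, or 7.70% (7.08–8.35), with a median of 10401 UMIs, but these hardly differed from the other memory cells. Of 4247 genes, 1 (0.0235%) passed 1.5-fold as higher, the microtubule regulator Stmn1 at 43.5 against 20.5 CPM, and 4 (0.0942%) were lower, the immunoglobulin genes Jchain, Igkc, Ighm and Iglc3. The median log2 ratio was 0.01. Of the 281 genes higher in the blood members, 186 were measured in memory: 0 were at least 1.5-fold higher, 1 was lower, and their median was 0.08, against 0.77 for the 281 in blood. Of the 87 lower genes, 67 were measured, with 0 higher, 1 lower and a median of -0.03.

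Levels show this gene by gene. S100a6 was at 2163 CPM in the memory gate and 1922 in the other memory cells, a ratio of 1.13, and Cxcr3 at 146 and 148, a ratio of 0.99. Ccr7 was at 66.1 and 70.0 CPM, and Lgals3 at 38 and 29.3, a ratio of 1.29. Gzmb was at 22.7 and 28.2 CPM and Tox at 4.68 and 4.44, far below the 337 and 59.1 of the blood members. Ier3, at 62.2 and 52.3 CPM, and Cxcr6, at 207 and 184, were present in both memory classes. The memory library had been sorted on 3 more surface markers than blood, and the part of that sort in the contrast was not tested.

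**Figure D5:**
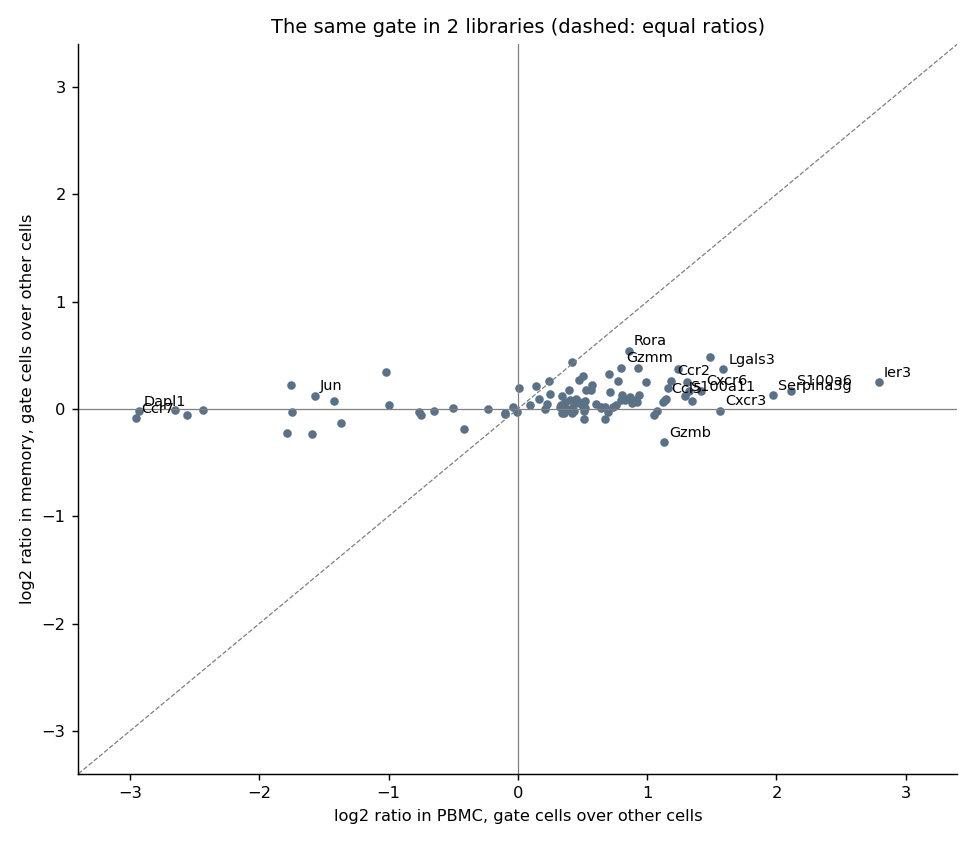
Log2 ratio of gate cells over other cells in blood (x axis) and in memory (y axis) for named genes measured in both (points), with equal ratios dashed. The points run flat along 0 in memory: S100a6 is at 2.12 in blood and 0.17 in memory, and Ccr7 at -2.95 and -0.08.

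In the lymph node the gate held 25 of 6265 cells, or 0.399% (0.258–0.589), where Gzmk was seen in 2.36% of cells and S100a4 at 2 or more UMIs in 2.76%. Of 5155 genes, 1264 (24.5%) passed 1.5-fold as higher and 490 (9.51%) as lower, counts that 25 cells make uncertain. Of the 281 genes higher in blood, 211 were measured, 137 of them higher and 5 lower, and of the 87 lower genes 50 of 83 were lower and 2 higher. Ccr2 was at 125 CPM against 4.83 in the other lymph node cells, Lgals3 at 303 against 10.3 and Gzmb at 274 against 5.87.

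Markers of other cells were seen for some lists. Cd4, Foxp3, Ncr1, Csf1r, Cd14, Cd79a, Ms4a1, Flt3 and Xcr1 were at 0 UMIs, as were all 6 neutrophil and all 5 melanoma markers, which allows up to 0.865 CPM each (3 counts). Other genes of the same lists were present. The B cell list summed to 70.1 CPM (61.5–79.5) against 108.4 (105–111), with Ighm at 108, Igkc at 96 and Cd79b at 39 UMIs in the members. The dendritic cell list summed to 38.6 CPM against 14.1, and 133 of its 134 UMIs in the members were Itgax. The CD4 or regulatory T cell list summed to 8.36 CPM against 3.69. The monocyte list summed to 303 CPM (285–322) in the members and 179.9 (176–184) in the other cells, with 8 of 10 genes seen; 533 of its 1050 UMIs were Ccr2 itself and 401 were Cst3. The 6 platelet genes were all seen and summed to 76.1 CPM (67.2–85.9) against 51.5 (49.4–53.6). Of the members 19, or 4.03%, held 3 or more platelet UMIs, against 3.15% of the other cells. The gamma delta or NK list summed to 162 CPM (149–176) against 313 (307–318), with Trdc at 212 UMIs in the members and Ncr1 at 0. Without the cells that held 3 or more erythroid or platelet UMIs, 297 genes were higher and 85 lower, against 281 and 87.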

How the data were processed

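Single-cell 3' RNA libraries (10x Genomics) of sorted CD8 T cells from tumour-draining lymph node, blood and memory mice were used, 1 library per group. The authors deposited whole-number UMI counts per gene and barcode, made with Cell Ranger 3.1.0 on mm10 per the submitters' processing notes. Barcodes numbered 7503, 6165 and 8321, with 72062695, 49592338 and 72283532 counts, and 6265, 5652 and 7003 cells passed 500 genes and 10% mitochondrial counts. Doublets were neither called nor removed, and an alternative left out the 5% of cells with the most UMIs.

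Counts were summed by class of cells and scaled to CPM. Intervals are exact 95% (Poisson for CPM, conditional binomial for ratios, Clopper-Pearson for shares; scipy 1.17.1). With 1 library per group there is no test and no p-value. Genes that reached 20 CPM in either class were compared and counted at 1.5-fold, without Gzmk, S100a4, Zeb2 and S1pr5. The tally of named genes over the processing alternatives applied neither the minimum nor this exclusion. Thinning to 3000 UMIs used a fixed seed. TMM factors came from edgeR 4.0.16, used for scaling only. Gene IDs matched GENCODE M21 for 31011 of 31053 genes.

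Named genes were the 12 highest and 12 lowest ratios over other cells and the 6 and 6 over Zeb2 or S1pr5 positive cells with at least 50 CPM, the 8 most variable in members, the 5 markers, a panel of 30 genes and up to 4 genes of each of 25 lists, without ribosomal, mitochondrial, predicted, segment, haemoglobin, Xist and Y-linked genes. The division genes, the memory calls and the V segments were named outside that rule. Some genes that the rule names are not reported here. The members, lists and rules were chosen with earlier results of these data known. On simulated counts for members over other cells (4128 genes), 100 of 100 genes changed 2-fold and 100 of 100 changed 4-fold were recovered, under counting error only.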

Additional observations from a re-analysis of the deposited data

Results flagged for a closer look

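Gzma went opposite ways under the same gate in blood and lymph node. Its log2 ratio of gate cells over other cells was 5.58 in the lymph node, with 888 CPM from 340 UMIs in 25 cells against 18.6 CPM, and -1.06 in blood, with 644 against 1343 CPM. It was picked for these opposite directions, each with an interval that leaves out no difference. Those intervals cover counting error only, and among the blood members the variance of Gzma was 22 times its mean. The difference between the libraries was not tested, since each had 1 library.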

How the results depend on the processing

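The share of members, 8.35% of blood cells, was 9.32% under stricter cell filters (1000 genes, 5% mitochondrial counts), 6.57% with cells thinned to 3000 UMIs first, 9.27% with 1 UMI of S100a4 enough, 7.63% with 3 required, 4.94% with 2 UMIs of Gzmk and 11.2% among cells of 4000 to 12000 UMIs. Counts over other cells (281 higher, 87 lower) became 522 and 132 with thinning before the gate, 179 and 332 without ribosomal and mitochondrial genes in the totals, 143 and 168 with TMM scaling, 131 and 38 at 50 CPM, 2100 and 1045 with no minimum and 61 and 35 at 2-fold. The higher count was 128 among cells of 4000 to 12000 UMIs and 143 with equal weight per cell. Over Zeb2 or S1pr5 positive cells (86 higher, 175 lower) they became 39 and 53 at 50 CPM, 1291 and 1508 with no minimum and 27 and 33 at 2-fold; the higher count was 175 without ribosomal and mitochondrial genes and the lower count 92 with TMM scaling. Counts at other minimums and folds differ by construction; for the rest the cause was not tested. Gzma turned to a log2 ratio of 0.10 with thinning before the gate. Of 80 named genes past 1.5-fold, 50 passed under all 12 alternatives and 30 failed in at least 1. The named genes included Gzmk and S100a4, whose levels the rule fixed, so a pass of these genes tells nothing about robustness. The tally also set no minimum level: it held Mki67, at 11.2 CPM in the members and 6.68 in the other cells. The share of other beta segments moved beyond its interval under none of the alternatives that change the cells. No paired analysis was possible because each group had 1 library and the labels give no replicate numbers. Depth limits low genes: 0 UMIs in the members allow up to 0.865 CPM.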

Other observations

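Genes at lower levels were looked at after their values had been seen: 9 genes of 20 to 50 CPM were at least 4-fold higher in the members than in the other blood cells. All 9 reached 20 CPM in the members only and could thus only be higher. The count is given without a share of all genes in that range and tests nothing. The highest ratio was that of Nccrp1, at 30.6 CPM (25–37) against 2.81, 10.9-fold (8.32–14.2), with 106 UMIs in 77 members and at most 5 in a cell. Maf, a transcription factor of T cell differentiation, was at 37.2 CPM (31.1–44.2) against 5.80, 6.41-fold (5.16–7.95), and was seen in 18.4% of members and 3.94% of other cells. Lilr4b, a leukocyte immunoglobulin-like receptor, was at 41.8 CPM against 9.73, 4.30-fold (3.54–5.19), and Sdcbp2 at 35.8 against 8.90. Against the Zeb2 or S1pr5 positive cells these 4 were also higher, by 10.3-fold for Nccrp1, 3.62 for Maf, 2.22 for Lilr4b and 2.04 for Sdcbp2. Ifitm1 passed as well, but 64 of its 132 UMIs lay in 1 cell.

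Receptor genes of other lineages moved in both directions. Tcrg-C2, a gamma chain constant gene, was at 65.7 CPM (57.5–74.9) in the members and 15.9 in the other cells, in 116 members, and Trgv2 at 34.0 against 9.03. Trdc, the delta chain constant gene, was at 61.1 against 265 CPM, in 40 members. Igkc, an immunoglobulin light chain, was at 27.7 CPM (22.4–33.8) against 2.88, spread over 50 members with at most 8 UMIs in a cell, while Cd79a and Ms4a1 were at 0. Tmem108, at 4.04 against 47.5 CPM, and Tnfsf8, the ligand of CD30, at 4.90 against 37.0, were among the lowest.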
